A study of Mus musculus with 17 samples.

Results

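The genes described here encode the enzymes of the middle steps of glycosylphosphatidylinositol (GPI) anchor synthesis: Pigl, Pigw, Pigm, Pigx, Pigv, Pigb, Pign, Pigo, Pigf and Pigg. Every probe set whose only gene symbol in the array annotation is one of these 10 names was taken, which gave 21 of the 45037 probe sets that are not controls. The 21 probe sets represent 9 of the 18193 genes that have a probe set of their own, and Pigw has none in the annotation used here. After a filter on low values, 20 of the 21 were tested. The probe set left out is Pign 1425813_at, with group means of 0.154 to 0.301 on the deposited log10-like scale.

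Mouse bone marrow cells were sorted by staining for GPI-linked surface proteins and profiled on 17 Affymetrix arrays. Batch 1 compared GPI-negative with GPI-positive cells of Pig-a knock-out mice, with 3 arrays per fraction. Batch 2 had 4 arrays of GPI-negative cells from C57BL/6 mice given enriched knock-out marrow, called knock-out graft recipients here. It also had 3 arrays of GPI-positive cells from C57BL/6 mice given wild-type marrow, called wild-type graft recipients, and 4 arrays of GPI-positive cells of wild-type C57BL/6 mice. Before transfer, donor marrow of the knock-out was kept for 30 minutes with 10 nM aerolysin, a toxin that lyses cells bearing GPI-linked proteins, and the recipients had received 9 Gy. The labels state neither the aerolysin step nor an irradiation dose for the wild-type graft, and the recipients of the 2 grafts are different animals, so GPI status and graft cannot be told apart there. Both knock-out fractions come from mutant mice, with the cells that kept their anchors on the GPI-positive side. The labels do not say how the gene was deleted or in which cells. Within a group the arrays are labelled as biological replicates with no animal named, and a p-value here reflects the spread over those arrays, which may be technical. Groups were compared only within a batch.

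GPI is a glycolipid that holds many proteins on the outer face of the plasma membrane and is built stepwise in the endoplasmic reticulum. The Piga complex starts it by joining N-acetylglucosamine to phosphatidylinositol, and the enzymes described here act on that product. Pigl removes the acetyl group and Pigw adds an acyl chain to inositol. Pigm, with its partner Pigx, then adds the first mannose, Pigv the second and Pigb the third, each taken from dolichol-phosphate-mannose. Pign puts ethanolamine phosphate on the first mannose, Pigo with its stabilising partner Pigf on the third, and Pigg, which also needs Pigf, on the second. The group on the third mannose is the one to which a transamidase links proteins. Blood cells lacking PIGA are the hallmark of paroxysmal nocturnal haemoglobinuria, a human stem cell disease.

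Several members share a start region with another gene, and the 3 regions that hold bases outside both genes are shown. No base lies outside both genes at Pigb and its neighbour Pigbos1, so that region is not shown. RefSeq promoter windows of GRCm38.p6 were found for 8 of the 10 members. In 4 of these (Pigx, Pigb, Pign and Pigf) an opposite-strand gene starts within 1000 bases, head to head. This holds for 11.3% of all 32851 windows, a share counted by window and not by gene, and a gene can have several. Myo19, on the strand opposite to Pigw, starts inside Pigw, and this overlapping pair was not counted as head to head. The bases outside both genes are printed 5′ to 3′ on the minus strand, the strand of all 3 members, with motif matches in capitals. They lie at chr17:87025402-87025560 between Pigf and Cript, at chr1:105663742-105663842 between Pign and Relch, and at chr16:32099728-32099788 between Pigx and Cep19.
Pigf and Cript: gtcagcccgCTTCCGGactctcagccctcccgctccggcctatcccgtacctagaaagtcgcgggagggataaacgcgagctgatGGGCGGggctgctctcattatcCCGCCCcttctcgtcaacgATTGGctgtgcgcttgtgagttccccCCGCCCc
Pign and Relch: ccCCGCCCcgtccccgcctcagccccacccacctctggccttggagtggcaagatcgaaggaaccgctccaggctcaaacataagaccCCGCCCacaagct
Pigx and Cep19: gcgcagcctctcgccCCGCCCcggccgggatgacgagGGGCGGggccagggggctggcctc

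The capitals mark the GC box (GGGCGG), the CCAAT box (CCAAT) and the ETS core (CCGGAAG), each searched on both strands, and no marked matches overlap. The other motifs searched were the TATA box (TATAAA), the NRF1 motif core (GCGCATGC), the CRE (TGACGTCA), the E-box (CACGTG) and the YY1 motif core (AAGATGGCG), none of which is in these letters. The Pigf stretch holds 5 matches, of which 3 are GC boxes. In the same 159-base slice of all windows, 29.2% held a GC box, 25.4% a CCAAT box and 5.67% an ETS core. The Pign and Pigx stretches hold 2 GC boxes each, a motif found in 16.9% and 18.8% of all windows over the same slices.

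The deleted gene was lower in the GPI-negative cells of both batches. Piga 1427305_at read 0.585, 0.660 and 0.579 on the knock-out GPI-negative arrays, against 1.198, 1.148 and 1.320 on the knock-out GPI-positive ones. In batch 2 it averaged 0.108 ± 0.089 in knock-out graft recipients (SD, n = 4), 1.2 ± 0.034 in wild-type graft recipients (n = 3) and 1.22 ± 0.031 in wild-type cells (n = 4). Marker lists for other cells moved with the groups. All 12 T and NK cell markers rose in knock-out GPI-negative cells, with summed linear levels of 681 to 727 against 80.5 to 85.6 in GPI-positive cells. In the same comparison 10 of 12 neutrophil markers fell (sums of 19800 to 21100 against 25800 to 26200), 5 of 8 B cell markers rose and 6 of 10 cell cycle genes fell. Of 10 monocyte and macrophage markers 2 rose and 6 fell, and none of 9 erythroid markers was called. In bulk RNA, fewer cells of a type and less RNA per cell cannot be told apart. No marker was listed at 0 on any array, and the 5 genes of non-marrow tissues, 3 of which passed the filter, were called in no comparison. The arrays differed too: the hybridisation controls averaged 2.35 to 2.538 on the knock-out GPI-negative arrays against 1.734 to 1.893 on the GPI-positive ones. The 3′ minus 5′ difference of the Gapdh control probe sets, a sign of RNA quality, was on the same log10-like scale -0.088 to -0.011 on the knock-out GPI-negative arrays and -0.311 to -0.300 on the GPI-positive ones, without overlap. In batch 2 it was -0.285 to -0.101 in knock-out graft recipients, -0.264 to -0.147 in wild-type graft recipients and -0.289 to -0.254 in wild-type cells. The median SD over bright probe sets was 0.189 log2 among the knock-out GPI-negative arrays and 0.076 among the GPI-positive ones, and 0.144 to 0.174 in the 3 groups of batch 2. The part of cell mixture, RNA quality and array differences in the results below was not tested.

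Between the fractions of knock-out marrow, single probe sets of Pigm, Pign and Pigg were lower and a single probe set of Pigo was higher in GPI-negative cells. These 4 of 20 tested probe sets passed an adjusted p of 0.05 in limma, 1 higher and 3 lower. Over all 32426 tested probe sets 25.4% passed, 12% higher and 13.4% lower, so the members' share was no higher than the background. The median log2 difference, GPI-negative minus GPI-positive, was -0.20 over the members and -0.02 over all tested probe sets, and 13 of the 20 were below 0. The median size of the difference was 0.25 log2 over the members and 0.24 over all. In 9 of the 20 the arrays of the groups did not overlap, against 39.5% of all tested probe sets.

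**Figure D1:**
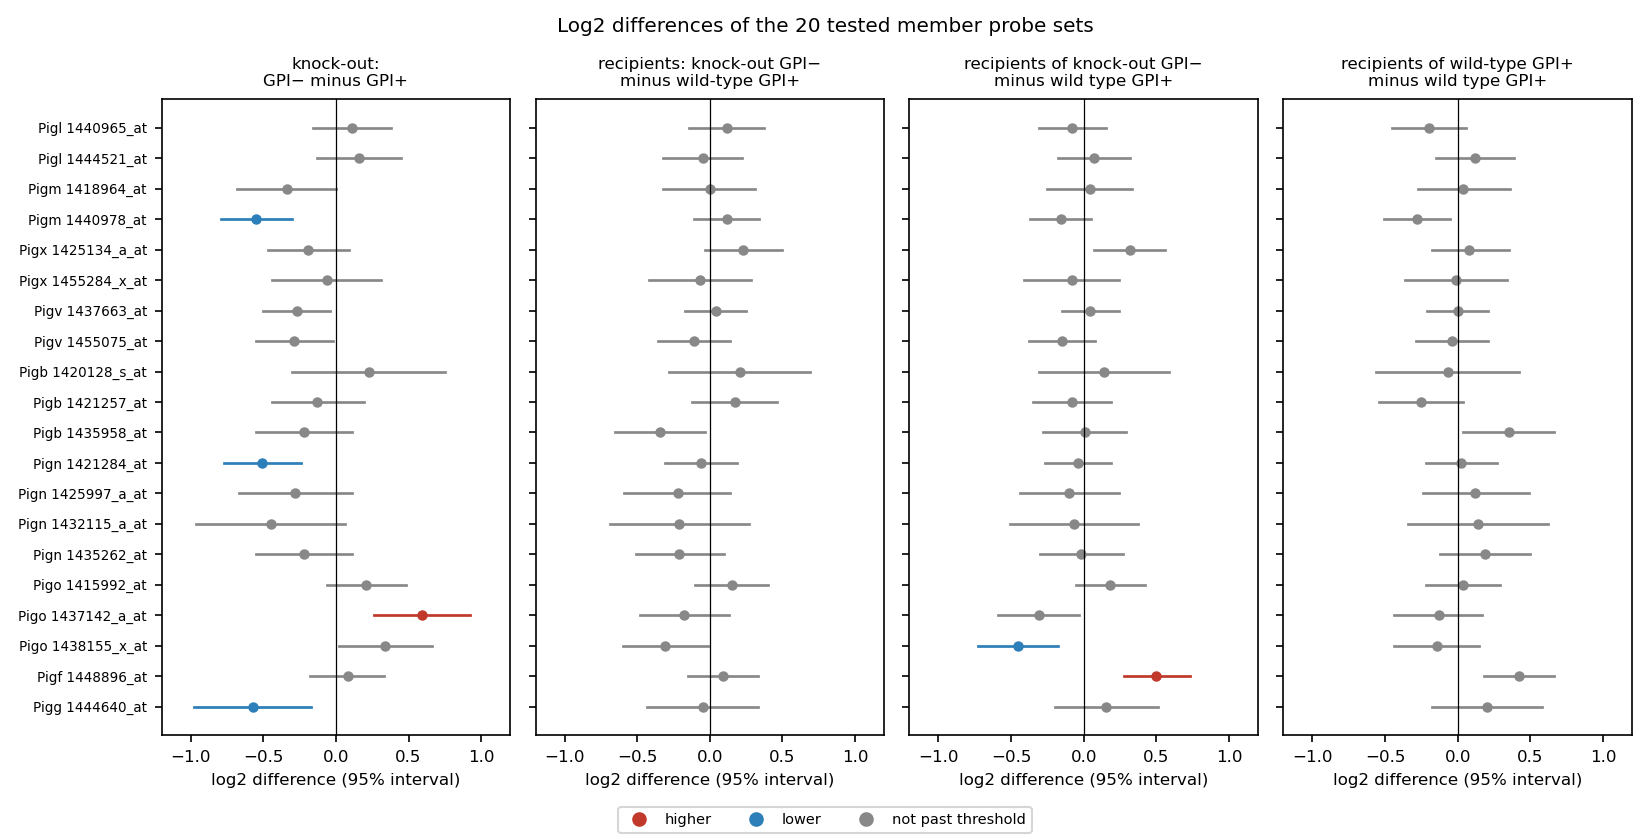
Log2 difference (x axis) with its 95% interval from limma for each of the 20 tested member probe sets (rows), in 4 comparisons (panels), each as the first named group minus the other. Coloured points passed an adjusted p of 0.05: 4 in the knock-out panel, none in the recipients panel, 2 against wild type and none in the last panel.

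Between the recipients no member passed. All 20 differences, knock-out graft recipients minus wild-type graft recipients, lay between -0.34 and 0.23 log2, with a median of -0.05. None of the 20 passed an adjusted p of 0.05 in limma, where 4.1% of all tested probe sets did, and 2 had an unadjusted p under 0.05. No member had groups that did not overlap, against a background of 12.7%. T and NK cell markers were higher here too, in 10 of 12 cases, and all 10 cell cycle genes tested were lower. Of the other markers, 5 of 9 erythroid and 4 of 12 neutrophil ones were lower, and of 10 monocyte and macrophage ones 5 were higher and 3 lower.

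Against wild-type cells, GPI-negative cells of knock-out graft recipients had higher Pigf and lower signal on 1 Pigo probe set. GPI status, aerolysin treatment of the donor marrow, irradiation and transplantation all differ in this comparison and cannot be told apart. The 2 calls were among 20 tested members, 1 higher and 1 lower, against 8.16% of all probe sets (4.2% higher and 3.97% lower). The arrays did not overlap for 2 members, against 13.5% of all. GPI-positive cells of wild-type graft recipients differed from wild-type cells in no member at the threshold in limma. The background was 0.617% there, 3 members had an unadjusted p under 0.05, and 3 had groups that did not overlap, against 12.4% of all. Over these 4 comparisons there were 6 calls in 80 tests, each on a different probe set, in 5 genes. The recipients' comparisons share arrays with each other.

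**Figure D2:**
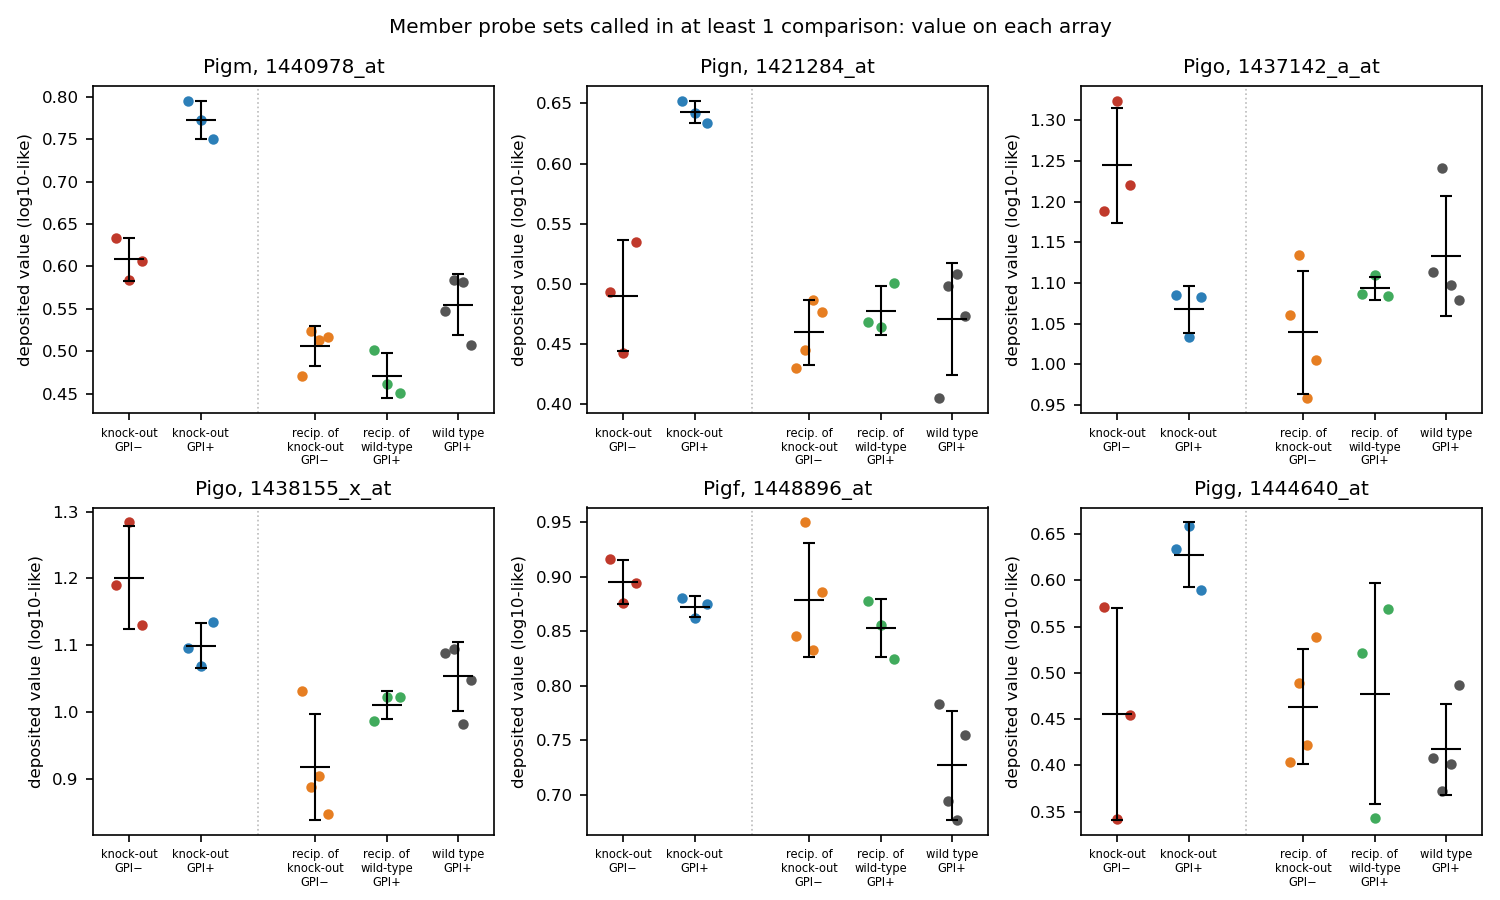
Deposited log10-like value (y axis, not starting at 0) on each array for the 6 member probe sets called in at least 1 comparison; points are arrays, bars the mean ± SD, and the dotted line separates the batches, whose levels are not comparable. Pigm, Pign and Pigg sit lower in knock-out GPI-negative than in GPI-positive cells and Pigo 1437142_a_at higher, while Pigf sits lower in wild-type cells than in both groups of recipients.

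Pigl, the deacetylase, gave no call. Its 2 probe sets differed by 0.11 (95% interval -0.16 to 0.38) and 0.16 (-0.13 to 0.45) between the knock-out fractions. Between the recipients the differences were 0.12 (-0.14 to 0.37) and -0.05 (-0.32 to 0.22). The adjusted p over the 4 comparisons was 0.44 to 0.92, and the intervals leave room for changes of about the size called in other members. Pigl lies at chr11:62458441-62516037 (GRCm38.p6), and Pigw, the inositol acyltransferase, at chr11:84876313-84880285.

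Pigm, the catalytic subunit of the first mannosyltransferase, was lower in knock-out GPI-negative cells on 1440978_at. That probe set read 0.634, 0.584 and 0.607 in knock-out GPI-negative cells, against 0.795, 0.773 and 0.750 in knock-out GPI-positive cells. Every GPI-negative array lay below every GPI-positive one. The log2 difference was -0.55 ± 0.12 (SE, n = 3 each, limma adjusted p = 0.0013), a level 1.46-fold lower. The other Pigm probe set, 1418964_at, read 0.657, 0.769 and 0.753 against 0.821, 0.831 and 0.837, also without overlap, but its difference of -0.34 ± 0.16 did not pass (adjusted p = 0.14 in limma).

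In batch 2 the order of the groups on Pigm 1440978_at was another. Knock-out graft recipients read 0.471, 0.524, 0.513 and 0.517, wild-type graft recipients 0.501, 0.461 and 0.451, and wild-type cells 0.547, 0.584, 0.582 and 0.507. Both groups of recipients had lower means than wild type. Wild-type graft recipients did not overlap with wild type (-0.28 ± 0.11), yet this did not pass the adjustment over all probe sets (adjusted p = 0.28 in limma; exact two-sided permutation p = 0.05714). Knock-out graft recipients overlapped with both. Between the 2 groups of recipients the difference was 0.12 (95% interval -0.11 to 0.34). Pigm lies at chr1:172376531-172384099.

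Pigx, which stabilises Pigm, was not called in any of the 4 comparisons. Its brighter probe set, 1425134_a_at, read 1.440, 1.431, 1.373 and 1.404 in knock-out graft recipients, against 1.371, 1.241, 1.310 and 1.343 in wild-type cells. Each array of these recipients was above each wild-type array. The difference was 0.32 ± 0.12 log2, with an adjusted p of 0.11 in limma and an exact two-sided permutation p of 0.02857, the smallest that 4 against 4 arrays allow. In the knock-out this probe set differed by -0.19 ± 0.14, and the second, dimmer Pigx probe set stayed between -0.08 and -0.01 in the 4 comparisons.

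Pigv, the second mannosyltransferase, had 2 probe sets that leaned the same way in the knock-out without passing. On 1437663_at the GPI-negative arrays read 0.831, 0.856 and 0.824, against 0.926, 0.953 and 0.875 on the GPI-positive ones. On 1455075_at they read 0.757, 0.682 and 0.638, against 0.783, 0.794 and 0.760. In both the groups did not overlap, and the differences were -0.27 ± 0.11 (adjusted p = 0.076 in limma) and -0.29 ± 0.13 (adjusted p = 0.11). In batch 2 all 6 Pigv differences lay between -0.15 and 0.04.

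Pigb, the third mannosyltransferase, gave no call on its 3 probe sets, which did not move together. The brightest, 1435958_at, read 0.414, 0.545, 0.438 and 0.616 in knock-out graft recipients, 0.592, 0.607 and 0.618 in wild-type graft recipients, and 0.493, 0.532, 0.517 and 0.463 in wild-type cells. The wild-type graft recipients lay above all wild-type arrays, by 0.35 ± 0.15 log2 (adjusted p = 0.33 in limma; exact two-sided permutation p = 0.02857). Their values overlapped with those of knock-out graft recipients, from which they differed with an adjusted p of 0.26. The other 2 probe sets differed in the opposite direction between wild-type graft recipients and wild type, by -0.25 and -0.07.

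Pign, which adds ethanolamine phosphate to the first mannose, has 5 probe sets, of which 4 were tested. All 4 differences were below 0 in the knock-out, at -0.51, -0.28, -0.45 and -0.22, and 1 of them passed. On 1421284_at the GPI-negative arrays read 0.493, 0.443 and 0.535, against 0.652, 0.642 and 0.634 on the GPI-positive ones. The groups did not overlap, and the difference was -0.51 ± 0.13 (adjusted p = 0.0050 in limma), 1.42-fold lower. This probe set is dim, at a mean percentile of 47.4 within the GPI-negative arrays and 59.2 within the GPI-positive ones. The brightest Pign probe set, 1435262_at, read 0.866, 0.813 and 1.017 against 0.966, 0.965 and 0.966. There the highest and the lowest array were both GPI-negative, and the difference of -0.22 ± 0.16 did not pass. In batch 2 the 12 Pign differences lay between -0.22 and 0.19, none called. Pign lies at chr1:105518421-105663741.

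Pigo, the transferase that puts ethanolamine phosphate on the third mannose, was higher in knock-out GPI-negative cells on 1437142_a_at. The GPI-negative arrays read 1.189, 1.324 and 1.221, against 1.085, 1.034 and 1.083 on the GPI-positive ones. All 3 GPI-negative arrays were above the others. The difference was 0.59 ± 0.16 (adjusted p = 0.0078 in limma), 1.5-fold. The other Pigo probe sets also had positive differences in the knock-out, 0.34 ± 0.15 for 1438155_x_at (adjusted p = 0.11) and 0.21 ± 0.13 for 1415992_at (adjusted p = 0.26), and neither passed. The _x suffix marks probe sets that may cross-hybridise with other transcripts.

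After transplantation 2 of the Pigo probe sets pointed the other way. On 1438155_x_at knock-out graft recipients read 1.031, 0.888, 0.904 and 0.847, wild-type graft recipients 0.986, 1.022 and 1.022, and wild-type cells 1.088, 1.094, 0.982 and 1.048. Of the 4 arrays from knock-out graft recipients, 3 lay below every other array and the remaining one lay among them. Against wild type the difference was -0.45 ± 0.13 (adjusted p = 0.037 in limma; exact two-sided permutation p = 0.05714). This call was lost when recipient replicate 2, 3 or 4 or wild-type replicate 1, 2 or 4 was left out (adjusted p up to 0.133). It was also lost, at 0.0509, without knock-out GPI-positive replicate 1, which only shares in the estimate of spread, and at 0.0646 with the knock-out GPI-positive arrays averaged. Pigo 1437142_a_at differed by -0.31 against wild type (adjusted p = 0.19) and 1415992_at by 0.18 (adjusted p = 0.40), so the 3 probe sets did not share a direction. Pigo lies at chr4:43017626-43027696.

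Pigf, the partner that Pigo and Pigg both need, was higher in knock-out graft recipients than in wild-type cells. Its single probe set, 1448896_at, read 0.846, 0.950, 0.833 and 0.886 in knock-out graft recipients, 0.878, 0.856 and 0.825 in wild-type graft recipients, and 0.783, 0.694, 0.677 and 0.755 in wild-type cells. All 7 recipient arrays lay above all 4 wild-type arrays. Against wild type the knock-out graft recipients differed by 0.50 ± 0.11 log2 (adjusted p = 0.0042 in limma; exact two-sided permutation p = 0.02857), 1.42-fold. The wild-type graft recipients differed from the same wild-type arrays by 0.42 ± 0.12, which did not pass (adjusted p = 0.10 in limma; exact two-sided permutation p = 0.05714).

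Pigf was not called between the recipients or between the knock-out fractions. Between the recipients the difference was 0.09 (95% interval -0.15 to 0.33). In the knock-out the GPI-negative arrays read 0.916, 0.876 and 0.894, and the GPI-positive ones 0.881, 0.862 and 0.875, a difference of 0.08 (-0.18 to 0.33). Beside the comparison with wild type, 8 of 9 erythroid markers were lower in knock-out graft recipients (summed linear levels of 162 to 569 against 864 to 1270), all 10 cell cycle genes were lower and 11 of 12 T and NK cell markers were higher. Of 10 monocyte and macrophage markers 5 were higher and 4 lower, and 2 of 8 B cell markers and 1 of 12 neutrophil markers were lower. Between wild-type graft recipients and wild-type cells no erythroid, cell cycle, T and NK or B cell marker was called, and 2 neutrophil markers were higher and 1 monocyte marker lower. The summed erythroid levels were still lower in wild-type graft recipients, at 437 to 636 against 864 to 1270, without overlap. Of the 9 erythroid differences there, 8 were below 0 and 1 above. Pigf lies at chr17:86997259-87025401.

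Pigg, which puts ethanolamine phosphate on the second mannose, was lower in knock-out GPI-negative cells. Its single probe set, 1444640_at, read 0.571, 0.342 and 0.454, against 0.634, 0.659 and 0.590 in GPI-positive cells. The groups did not overlap, but the GPI-negative arrays spread widely, with an SD of 0.115 against 0.0352. The probe set is dim, at a mean percentile of 42.2 within the GPI-negative arrays and 58.2 within the GPI-positive ones. The difference was -0.57 ± 0.20 (adjusted p = 0.035 in limma), 1.49-fold lower. The call was lost without knock-out GPI-negative replicate 2 (difference -0.38, adjusted p = 0.179) or 3 (0.0728) and without GPI-positive replicate 1, 2 or 3 (0.0878, 0.113 and 0.0506). Fitting batch 1 alone gave 0.0646. In batch 2 the 3 Pigg differences lay between -0.05 and 0.20. Pigg lies at chr5:108312813-108349359.

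The 3 knock-out GPI-positive arrays lay close together, and treating them as 1 sample ended all 4 knock-out calls. The log2 differences were the same under that setting, at -0.55, -0.51, 0.59 and -0.57 for Pigm, Pign, Pigo and Pigg. The adjusted p in limma was then 0.0627 for Pigm, 0.123 for Pign, 0.147 for Pigo and 0.277 for Pigg, with 1 sample in that group. Over all probe sets, 2764 of 32426 remained called under that setting, where 8238 were called with 3 arrays.

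The knock-out and recipient comparisons share no array, so the difference between them could be tested directly. For Pigm 1440978_at the knock-out difference minus the recipient difference was -0.66 ± 0.16 (adjusted p = 0.0066 in limma), from -0.55 in the knock-out and 0.12 between the recipients. For Pigo 1437142_a_at it was 0.77 ± 0.21 (adjusted p = 0.018), from 0.59 and -0.18. For Pigo 1438155_x_at it was 0.65 ± 0.21 (adjusted p = 0.040), from 0.34 and -0.31. These are 3 of the 20 tested members, 2 higher and 1 lower, where 15% of all probe sets passed, 6.73% higher and 8.23% lower. With the knock-out GPI-positive arrays averaged into 1 sample, none of the 3 passed (adjusted p in limma of 0.082, 0.141 and 0.211, in the order given), and the call of Pigo 1438155_x_at was lost in 13 of its 25 alternatives. Pign 1421284_at (-0.45 ± 0.17, adjusted p = 0.089) and Pigg (-0.52 ± 0.27, adjusted p = 0.21) did not pass, so their knock-out calls are not shown to be particular to the knock-out. The comparisons also differ in batch and RNA input, which the labels give as 500 ng in the first experiment and 1000 ng in the second, and in T and NK cell markers, all 12 of which differed between the comparisons.

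**Figure D3:**
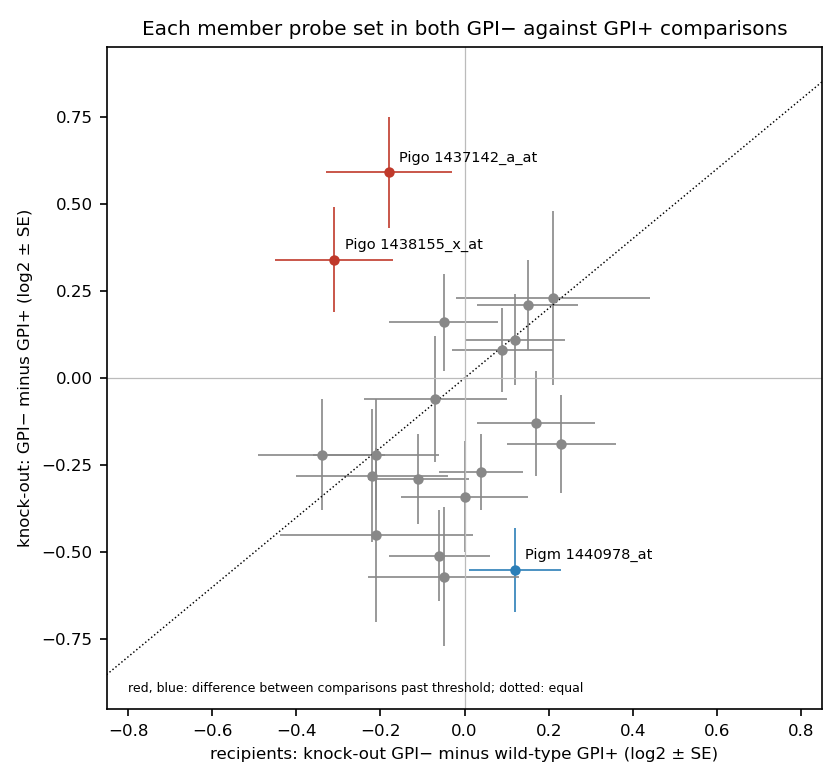
Each of the 20 tested member probe sets by its log2 difference between the recipients (x axis) and between the knock-out fractions (y axis), with bars of ± 1 SE. Both named Pigo probe sets lie at upper left and Pigm 1440978_at at lower right, away from the dotted line of equal differences; these 3 had a difference between comparisons with an adjusted p under 0.05.

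Genes on either side of these steps were counted by 1 probe set per gene. Of the 6 tested genes of the first step, Pigp and Pigh, 2 subunits of the Piga complex, were higher in knock-out GPI-negative cells by 0.93 ± 0.15 and 0.75 ± 0.12 log2, while Piga itself fell by 2.04. By that same count 1 of the 9 middle-step genes was higher (Pigo) and 1 lower (Pigg). Of all genes counted in this way, 28.1% were called in the knock-out, 14% higher and 14.1% lower. The share was 5.99% between the recipients, 10.8% in knock-out graft recipients against wild-type cells, 0.681% in wild-type graft recipients against wild-type cells and 17.3% in the difference between the knock-out and recipient comparisons. In knock-out graft recipients against wild-type cells, Piga and Pigq, another subunit, were the 2 first-step genes called, both lower (Pigq by -1.35 ± 0.21). Pigq also differed by -0.66 ± 0.22 in wild-type graft recipients against wild type and by -0.69 ± 0.22 between the recipients, neither called. The probe sets used for Pigq and for Pigt below carry the _x suffix. Of the 5 transamidase genes, which act after the middle steps, Gpaa1 (-1.27 ± 0.26) and Pigt (-0.62 ± 0.15) were lower in knock-out GPI-negative cells, and Pigk was higher by 0.33 ± 0.10 in knock-out graft recipients against wild type. Of 5 tested genes for anchor remodelling and the fourth mannose, Pgap2, needed for fatty acid exchange, was lower in the knock-out (-0.50 ± 0.14). Pgap1, which removes the acyl chain that Pigw adds, was higher in knock-out graft recipients than in wild-type graft recipients (0.86 ± 0.14, adjusted p = 0.00081 in limma) and than in wild-type cells (0.57 ± 0.13).

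Of 13 genes for dolichol-phosphate-mannose, Dhdds, a subunit of the enzyme that makes the dolichol chain, and Mpi, which makes mannose 6-phosphate, were lower in knock-out GPI-negative cells, by -0.64 ± 0.13 and -0.47 ± 0.14. None of the 13 was called between the recipients. Against wild type Dhdds was lower (-0.43 ± 0.12) and Srd5a3, a polyprenol reductase, higher (0.36 ± 0.11) in knock-out graft recipients. Of 5 genes for phosphatidylethanolamine, the donor for Pign, Pigo and Pigg, Etnk1, an ethanolamine kinase, was higher in the knock-out (0.51 ± 0.12) and none was called in batch 2. Of 12 other enzymes that use dolichol-phosphate-mannose, Tmtc2 (0.71 ± 0.19) and Tmtc4 (0.42 ± 0.14) were higher in the knock-out. Dpy19l1, a C-mannosyltransferase, was higher in knock-out graft recipients against both wild-type graft recipients (0.45 ± 0.12) and wild type (0.73 ± 0.11), and Pomt1, an O-mannosyltransferase, was lower in the first of these (-0.48 ± 0.13).

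The genes that start head to head with members were looked up by position after the data had been seen. Cript starts 160 bases from Pigf. In knock-out graft recipients against wild type, Cript 1423486_at differed by -0.11 (95% interval -0.33 to 0.11), beside 0.50 for Pigf. The dimmer Cript probe set, 1423487_at, differed by 0.06 there. In wild-type graft recipients against wild type, 1423486_at differed by -0.13 and 1423487_at by 0.29 (95% interval 0.01 to 0.57), beside 0.42 for Pigf. Neither Cript probe set was called. Cep19, a centrosome gene, starts 62 bases from Pigx. Its mean was 1.49 ± 0.12 on the GPI-negative arrays of the knock-out and 1.85 ± 0.0073 on the GPI-positive ones (SD, n = 3 each), a difference of -1.19 ± 0.16 (adjusted p = 1.2e-05 in limma), beside -0.19 for Pigx, which was not called. Relch starts 185 bases from Pign. Its 6 probe sets differed by -0.36 to 0.27 in the knock-out, none called, beside -0.51 on the called Pign probe set. Pigbos1 starts 19 bases from Pigb. Its probe sets 1435237_at and 1435238_x_at differed by -0.22 and -0.14 in the knock-out, neither called. Those of Pigb differed by -0.22 to 0.23 there. The difference within each pair was not tested.

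**Figure D4:**
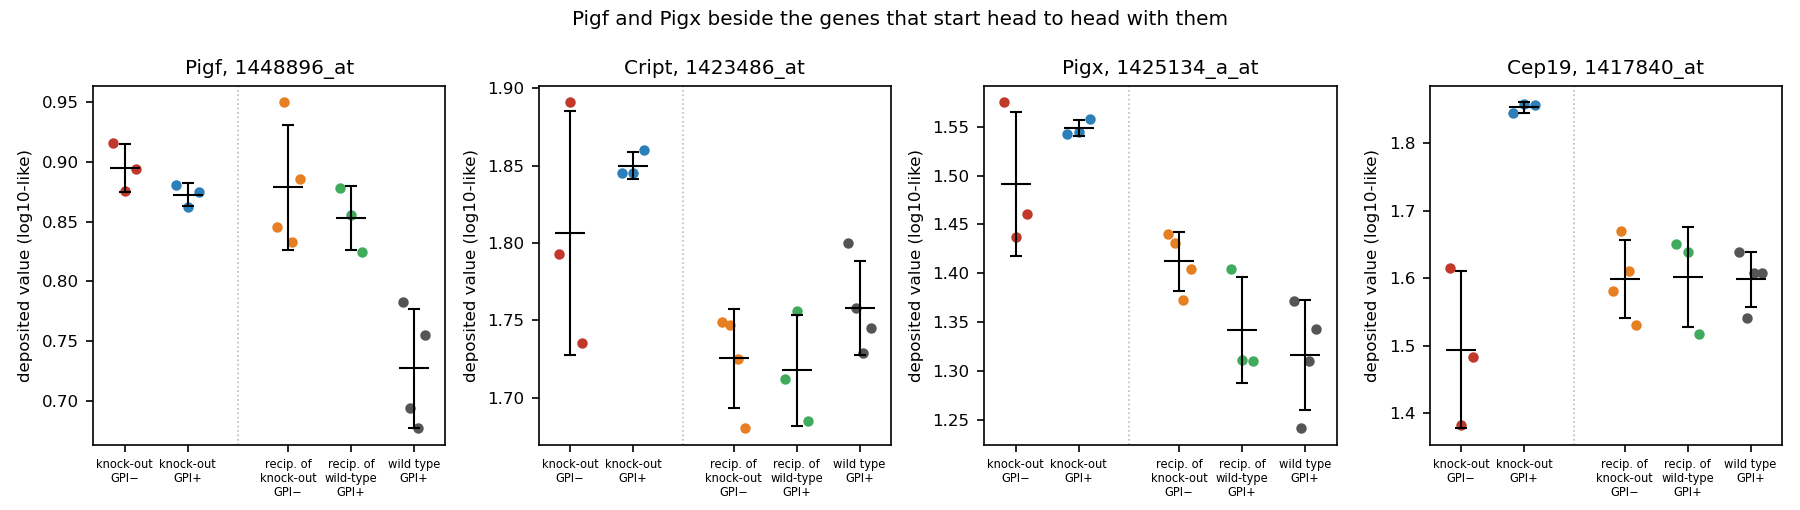
Deposited log10-like value (y axis, not starting at 0) on each array for Pigf and Cript and for Pigx and Cep19; points are arrays, bars the mean ± SD, and the dotted line separates the batches. Each gene is shown by its brightest probe set. Pigf sits above wild type in both groups of recipients where Cript 1423486_at overlaps. Cep19 sits lower in knock-out GPI-negative cells (1.49) than in GPI-positive ones (1.85) where Pigx overlaps.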

How the data were processed

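The authors' deposited values are log10-like intensities per probe set. Arrays of a batch hold the same set of values in different order, so they had been quantile-normalized per batch. The log base was read from the values, and the labels do not state the background correction or summary. The submitters' processing notes list GCOS 12 and give it no role. Batch 1 was taken as the first experiment of the labels.

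Values were divided by the log10 of 2 and arrays centred on a common median. A probe set was kept where at least 3 arrays had it at or above their 40th percentile. All 32426 were fitted in limma 3.58.1 (R 4.3.3; lmFit, then eBayes with a trend) over 5 group means, with 12 residual degrees of freedom. The Benjamini-Hochberg adjustment ran over all of these, with a threshold of 0.05. The fit was tested on simulated data in which each probe set had the same spread in all groups. That simulation says nothing on groups of unequal spread, such as the knock-out fractions. Single values had exact permutation tests, which reach 0.1 at best with 3 against 3 arrays and 0.02857 with 4 against 3 or 4. All members are named, and of each pathway list up to 3 called genes per comparison. Members and lists were chosen with earlier results of these data known. Values near the floor are compressed, and probe set levels are not compared with each other. The number of arrays limits precision. The labels do not say whether a replicate number marks an animal, so the main fit did not pair samples. Alternatives are given in the closing section.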

Additional observations from a re-analysis of the deposited data

Results flagged for a closer look

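In 3 member probe sets the knock-out difference differed from the recipient difference in limma. These were Pigm 1440978_at (-0.66 log2, adjusted p = 0.0066), Pigo 1437142_a_at (0.77, adjusted p = 0.018) and Pigo 1438155_x_at (0.65, adjusted p = 0.040). With the knock-out GPI-positive arrays averaged, all 3 missed the threshold (0.082, 0.141 and 0.211), and Pigo 1438155_x_at did so in 13 of its 25 alternatives.

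In groups of 4 arrays, 42 were examined for a single array far from the other 3 by Dixon's ratio, and 2 passed its critical value, a rate near the 1 in 20 that chance gives. Pigx 1455284_x_at read 0.378 on replicate 4 of the knock-out graft recipients, and 0.258 to 0.277 on the other 3. Pigb 1421257_at read 0.396 on wild-type replicate 1, and 0.330 to 0.334 on the other 3.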

How the results depend on the processing

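There were 27 alternatives, of which 17 left out 1 array. No called member difference reversed in those that gave it a value, 25 to 27 for each. Of 2595 comparisons of a member's difference with its alternative, 2551 stayed on the same side of the threshold, 38 fell short of it and 6 newly passed. Pigf against wild type passed in all 27 of its alternatives (adjusted p in limma 0.00251 to 0.0218). Averaging the knock-out GPI-positive arrays left 0 members called in the knock-out, 1 in knock-out graft recipients against wild type and 0 in the difference between comparisons. Taking 1 probe set per gene gave 2, 1 and 1. The replicate block gave 4 in the knock-out, 0 between the recipients, 1 in knock-out graft recipients against wild type, 0 in wild-type graft recipients against wild type, and 2 in the difference. Under it Pigo 1438155_x_at missed the threshold against wild type (0.0598) and in the difference (0.0872). After each group's mean was subtracted per probe set, same-numbered arrays of the compared groups correlated at -0.13 to 0.09. Array weights gave 1 call, Pigf (adjusted p = 0.0461), in wild-type graft recipients against wild type. Leaving out 1 array gave 3 to 6 calls in the knock-out, 0 between the recipients, 1 to 2 in knock-out graft recipients against wild type, 0 in wild-type graft recipients against wild type and 1 to 3 in the difference. The difference kept only Pigm without knock-out GPI-negative replicate 2 or GPI-positive replicate 2, where Pigo 1437142_a_at had 0.051 and 0.0535. Pigo 1438155_x_at lost its call in the difference in 13 of 25 alternatives. Pigg lost its knock-out call in 9 of 27, also with quantile normalization over all arrays (0.0592) and array weights (0.0741). Fitting each batch alone gives no difference between comparisons. The causes were not tested. Dim probe sets near their array's median, such as those called for Pigg and Pign and some of Pigb, limit what these arrays can show.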
